A study of Rattus norvegicus with 74 samples.

Results

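miR-132 and miR-212 are sister microRNAs cut from neighbouring hairpins of 1 genomic cluster, and both were followed in the kidney of F344 rats from 2 to 104 weeks of age. All entries of the array named miR-132 or miR-212 were taken, with either arm of the hairpin, and kept when at least 1 array detected them. Of 4 such entries the 2 carried on the 3p arm, miR-132-3p and miR-212-3p, were kept, out of 311 miRNAs detected on at least 1 array and 677 on the array. The pair had been picked with its signals by age and sex in view, including the spread between old animals, so the differences between ages and sexes are described here without a test.

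The F344 rat is an inbred strain that is widely used in toxicology. Untreated males and females were killed with CO2 at 8 ages, namely 2, 5, 6 and 8 weeks, then 15 and 21 weeks, and in late life 78 and 104 weeks, and the females were at no common stage of the estrous cycle. Whole kidneys were ground, and total RNA of 1 animal was hybridized to each of 74 single-colour Agilent rat miRNA arrays. Groups of 4 were the males of 8 and 104 weeks and, among females, those of 21, 8, 5 and 2 weeks, and the other 10 groups held 5 animals each. The number of arrays limits the precision of each group mean.

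A miRNA is cut from the stem of a hairpin and guides a silencing complex to messenger RNAs that pair with its seed. The cluster is best known from neurons, where the transcription factor CREB switches it on after synaptic activity or a neurotrophin signal, and where miR-132 promotes the growth of dendrites. The same miRNAs are also known from the heart, where they repress FoxO3, and miR-132 has been studied in mouse models of kidney fibrosis. A miRNA array measures neither CREB nor messenger RNA, so whether CREB drove either miRNA in these kidneys was not tested.

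The mature 3p sequences are shown because both miRNAs carry the same seed, bases 2 to 8 from the 5′ end, which is in capitals. They are RefSeq sequences on the plus strand of chromosome 10 in build GRCr8, at chr10:60522091-60522112 for miR-132-3p and chr10:60521811-60521832 for miR-212-3p.
rno-miR-132-3p: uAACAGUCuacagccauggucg
rno-miR-212-3p: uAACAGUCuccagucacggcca
Counted from 1 at the 5′ end, the first 9 bases are identical and 17 of 22 match. From miR-132-3p to miR-212-3p the differences are A10C, C14U, U17C, U20C and G22A. Among 724 mature rat miRNAs in the RefSeq table, only these 2 hold this seed. The arms from the other side of each hairpin, for which no array gave a detected signal, differ from each other within the seed and are shown for that contrast.
rno-miR-132-5p: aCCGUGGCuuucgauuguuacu
rno-miR-212-5p: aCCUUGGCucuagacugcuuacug
The hairpin of miR-132 shows where its 3p arm sits, in capitals here, at chr10:60522033-60522133.
Mir132 hairpin: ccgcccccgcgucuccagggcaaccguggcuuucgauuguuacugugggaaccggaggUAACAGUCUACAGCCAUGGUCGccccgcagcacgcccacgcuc
The Mir212 gene lies at chr10:60521740-60521850, and 182 bases separate it from Mir132. In this annotation both lie between genes. The nearest protein-coding genes are Hic1, which ends 3927 bases before Mir212, and Ovca2, which begins 2251 bases after Mir132. A long noncoding RNA, LOC120095261, begins 8 bases after Mir132.

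Values are normalized intensities: the scanner's total gene signal of a miRNA divided by the 75th percentile of that array over the 311 expressed miRNAs. Values under a common floor of 0.0171 were raised to it, and undetected miRNAs stand at that floor. Arrays detected 190 to 264 miRNAs (median 232), and no miRNA spot was saturated. Animals up to 8 weeks old and animals from 15 weeks on had separate sets of 5 slides each, save that 1 female of 15 weeks was on a slide of the young animals. A step between 8 and 15 weeks therefore cannot be told apart from slide.

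miR-132-3p was detected on 61 of 74 arrays (82.4%) and miR-212-3p on 23 of 74 (31.1%). Neither miR-132-5p nor miR-212-5p was detected on any of 74 arrays. The brighter probe of miR-132-5p reached a signal of 2.56 at most and that of miR-212-5p 0.244, against 22.4 and 18.5 for the brighter probes of miR-132-3p and miR-212-3p. Both 3p miRNAs were detected together on 18 arrays, miR-132-3p alone on 43, miR-212-3p alone on 5 and neither on 8. miR-132-3p was detected on 35 of 38 male arrays and 26 of 36 female arrays. miR-212-3p was detected on 8 of 38 male arrays and 15 of 36 female arrays.

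The highest levels of miR-132-3p were those of old males. In 104-week males its normalized intensity was 0.114, 0.131, 0.0636 and 0.0917 in the 4 animals. In 104-week females it was 0.0582, 0.0325, 0.0352 and 0.0513, and the remaining animal was undetected. Every 104-week male lay above every 104-week female. The group means were 0.10 ± 0.0291 (SD, n = 4) in males and 0.0389 ± 0.0163 (SD, n = 5) in females. The mean log2 level was higher in males by 1.43 (SE 0.38), a fold of 2.70. Across the expressed miRNAs, 6.11% had all 104-week males above all 104-week females.

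At 78 weeks of age 1 male stood far from the other males. Values of miR-132-3p in males were 0.0408, 0.0419, 0.0368, 0.0542 and 0.135, and the last, replicate 6, was the highest value of all 74 arrays. In 78-week females 3 animals had 0.0328, 0.0246 and 0.0470, and the other 2 were undetected. The groups overlapped, because 3 of 5 males lay below the highest female. The mean was 0.0617 ± 0.0413 (SD, n = 5) in males and 0.0277 ± 0.0126 (SD, n = 5) in females, and the log2 difference of 1.07 (SE 0.44) fell to 0.74 without male replicate 6.

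At 21 weeks the sexes were apart at a lower level. The 5 males had 0.0335, 0.0306, 0.0397, 0.0314 and 0.0349, while 3 females had 0.0236, 0.0201 and 0.0194 and the fourth was undetected. Every male lay above every female, with means of 0.0340 ± 0.00359 (SD, n = 5) and 0.0201 ± 0.00269 (SD, n = 4) and a log2 difference of 0.76 (SE 0.12). Among expressed miRNAs 6.43% showed such a separation at that age. At 2, 5, 6, 8, 15 and 78 weeks of age the sexes overlapped for miR-132-3p. The share of expressed miRNAs with all males above all females at those ages was 1.61, 0, 0, 6.11, 2.25 and 1.93%. At 2, 6 and 15 weeks both sexes held an undetected animal at the floor, so miR-132-3p could not be apart there.

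From 21 to 104 weeks miR-132-3p was higher in both sexes. In males every 104-week animal lay above every 21-week animal, as for 7.07% of expressed miRNAs, and the log2 difference was 1.51 (SE 0.24), a fold of 2.85. In females the log2 difference was 0.84 (SE 0.32), a fold of 1.79. The female groups overlapped, since 1 animal of each age was undetected and stood at the floor.

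**Figure D1:**
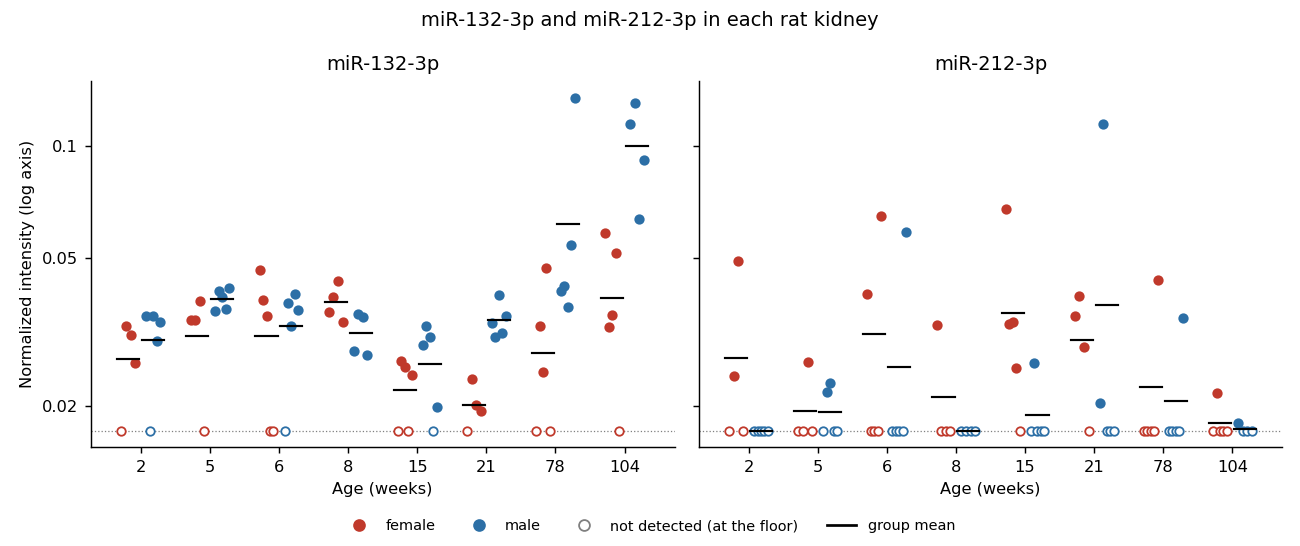
Normalized intensity (log axis) of miR-132-3p (left) and miR-212-3p (right) in each animal against age in weeks. Filled points are detected arrays, open points are undetected arrays placed at the floor of 0.0171 (dotted line), and black bars are group means. The 4 males of 104 weeks hold miR-132-3p levels from 0.0636 to 0.131, above all 5 females of that age, whereas miR-212-3p stands at the floor on 51 of 74 arrays.

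Before late life the group means of miR-132-3p ran from 0.0201 to 0.0387. In females the level was lower at 21 weeks, 0.0201 ± 0.00269 (SD, n = 4), than at 8 weeks, 0.0380 ± 0.00428 (SD, n = 4). These ages were on separate sets of slides, so this difference cannot be told apart from slide. Over the 36 arrays of 2 to 8 weeks it ran from the floor to 0.0463 with a median of 0.0347. Over the 19 arrays of 15 and 21 weeks the median was 0.0255 and the highest value 0.0397, and over the 19 arrays of 78 and 104 weeks these were 0.0419 and 0.135. Besides the 8-week females, the groups up to 8 weeks with all animals detected were 5-week males at 0.0387 ± 0.00252 (SD, n = 5) and 8-week males at 0.0314 ± 0.00425 (SD, n = 4). In order of the group mean, 104-week males ranked highest, followed by 78-week males and then 104-week females. The lowest 3 were 15-week males at 0.0259 ± 0.00695 (SD, n = 5), 15-week females at 0.0220 ± 0.00455 (SD, n = 5) and 21-week females. Neighbours in that order never differed by more than the larger of their SDs, in 0 of 15 pairs.

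With undetected animals placed at the floor, animals of 1 group differed most among 78-week males and 104-week females. The ratio of the highest to the lowest miR-132-3p value was 3.66 in 78-week males, 3.40 in 104-week females, 2.74 in 78-week females and 2.05 in 104-week males, and from 1.15 to 2.71 in the younger groups. Groups with an undetected animal at the floor were wide at young ages too, with 2.71 in 6-week females, 2.34 in 6-week males and 2.24 in 5-week females, all above the 104-week males. In log2 units the SD was 0.76 in 78-week males, 0.69 in 104-week females, 0.68 in 6-week females, 0.63 in 78-week females and 0.45 in 104-week males. For scale, of the 166 miRNAs detected on all arrays, 3 had a larger SD among the 78-week males and 1 among the 104-week females. Those 166 miRNAs never stand at an undetected value, whereas miR-132-3p did so in 13 animals, and the part of this in its spread was not tested.

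The scanner's detection step bears on each of these values. Each miRNA had 2 probes of 10 spots each, a miRNA counted as detected where a probe exceeded 3 times its error, and only such probes entered the total signal. This rule held in all of 296 checks over the 4 arms and 74 arrays. The brighter probe of miR-132-3p passed on 61 arrays and the dimmer on 4 only: 104-week males 1, 2 and 6 and 78-week male 6. Those are the 4 highest totals, and the dimmer probe had been added to no other total. On the 13 undetected arrays the brighter probe stood between 0.0206 and 0.0396 of the 75th percentile, within the range of 0.0194 to 0.10 on the detected arrays. The 75th percentile itself had a median of 123 on the undetected arrays and 165 on the detected ones.

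With the brighter probe alone on every array, whether detected or not, the 3 highest groups kept their order. The differences between the sexes and the late rise in males were smaller, and the late rise in females was larger. This measure was chosen after the data were seen. At 104 weeks it gave 0.0773 ± 0.0162 (SD, n = 4) for the males and 0.0430 ± 0.0112 (SD, n = 5) for the females. At 78 weeks it gave 0.0548 ± 0.0262 (SD, n = 5) for the males and 0.0306 ± 0.00993 (SD, n = 5) for the females. The groups at 104 weeks still did not overlap, with a lowest male of 0.0636 and a highest female of 0.0582. At 21 weeks the lowest male had 0.0306 and the highest female 0.0236. The log2 difference between the sexes became 0.86 (SE 0.22) at 104 weeks, 0.79 (SE 0.32) at 78 weeks and 0.65 (SE 0.10) at 21 weeks. Between 104 and 21 weeks it became 1.17 (SE 0.16) in males and 0.96 (SE 0.18) in females. The ratio of highest to lowest became 2.72 in 78-week males, 2.08 in 78-week females, 1.79 in 104-week females and 1.52 in 104-week males. By this measure 104-week females thus differed less than 78-week females.

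**Figure D2:**
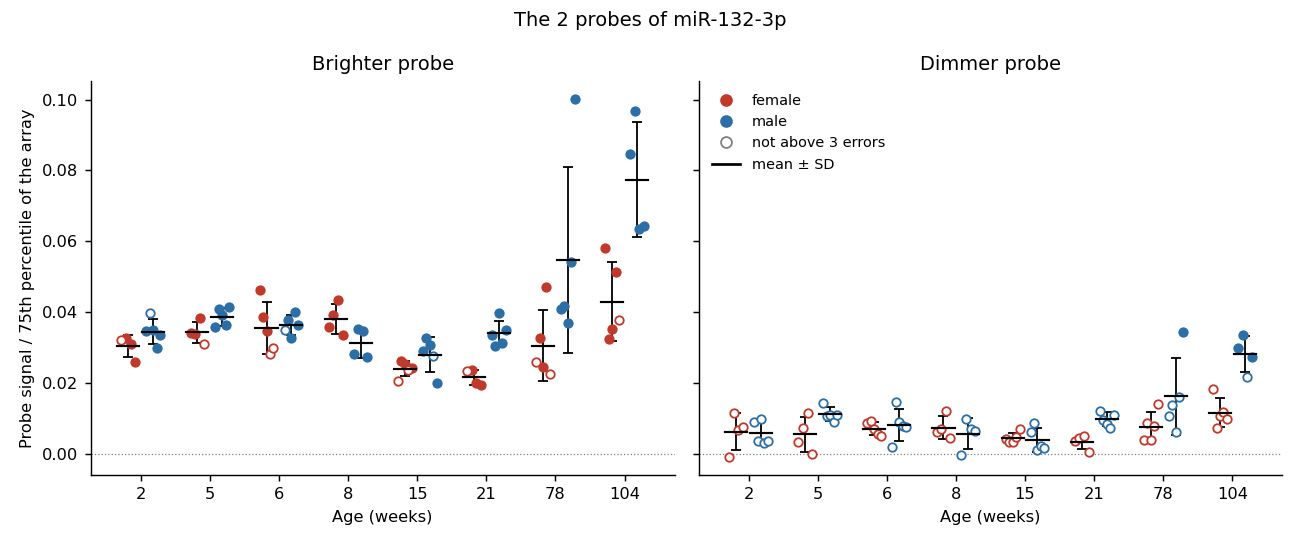
Signal of the brighter (left) and dimmer (right) probe of miR-132-3p, divided by the 75th percentile of the array, in each animal against age in weeks. Filled points exceed 3 times the probe's error, open points do not, and bars give the mean ± SD of each group. The dimmer probe passes in 4 old males only, and the brighter probe of 104-week males, 0.0636 to 0.0968, lies above that of 104-week females.

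The sexes and late ages shared slides, so they could be compared within a slide. On each of the 4 slides that held both, the 104-week male exceeded the 104-week female, by 0.85 to 2.42 log2 units. The 78-week male exceeded the 78-week female on 5 of 5 slides, by 0.21 to 2.98. The 21-week male exceeded the 21-week female on 4 of 4 slides, by 0.50 to 1.03. In males the 104-week animal exceeded the 21-week animal on 4 of 4 slides, by 0.68 to 1.96. In females it did so on 3 of 4, and on the other slide both were undetected.

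miR-212-3p showed no such course. It was detected in 1 of 4 males at 104 weeks (0.0180), 1 of 5 females at 104 weeks (0.0217), 1 of 5 males at 78 weeks (0.0344) and 1 of 5 females at 78 weeks (0.0436). Detection was most frequent in young adult females. At 15 weeks 4 of 5 females had 0.0678, 0.0332, 0.0336 and 0.0253, and at 21 weeks 3 of 4 females had 0.0349, 0.0395 and 0.0287. Its highest value was 0.115 in 21-week male replicate 2, the sole array where its dimmer probe passed too. Another 21-week male had 0.0204 and the remaining 3 were undetected.

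Scattered detections filled the younger ages. Among 2-week females 2 of 4 were detected, at 0.0240 and 0.0490, but 0 of 5 males of that age. Among 6-week females 2 of 5 reached 0.0401 and 0.0646, and 1 of 5 males reached 0.0588. Among 5-week animals 1 of 4 females had 0.0262 and 2 of 5 males had 0.0217 and 0.0231. At 8 weeks 1 of 4 females had 0.0330 and 0 of 4 males were detected. At 15 weeks 1 of 5 males had 0.0260. The sexes could not separate at any age, since every group held at least 1 undetected animal at the floor. At 104 weeks the log2 difference between males and females was -0.05 (SE 0.07). Nearly all animals of both groups stood at the floor, so this difference bounds nothing below the floor. The brighter probe alone, a measure chosen after the data were seen, was compared within shared slides. It was higher in the male on 0 of 4 slides at 104 weeks, 0 of 5 at 78 weeks and 0 of 4 at 21 weeks. Between 104 and 21 weeks it was higher at 104 on 0 of 4 slides in either sex. Many of these signals did not exceed 3 times their error.

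Slides differed in how often they gave miR-212-3p. It was detected on 0 of 8 arrays of slide 1 and 0 of 8 of slide 7, and on 4 of 7 of slides 2 and 3. Slides 1 and 7 held ages of 2 to 8 weeks. The arrays without detection had a median 75th percentile of 146 and those with detection 176. The part of slide and array brightness in the detections was not tested.

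The genes of both miRNAs adjoin, and the relation between their levels is described here without a test, since the pair was chosen with its signals in view. Over the 16 group means of log2 level, Pearson's r between miR-132-3p and miR-212-3p was -0.53, given as a description of points that share slides and scaling. Within groups, deviations from the group mean gave r = 0.040 (n = 74) and Spearman's rho = 0.092. Without the 2 arrays farthest from the median of miR-132-3p r was -0.035, and with slide means removed 0.047. On 51 arrays miR-212-3p stood at the floor or was undetected, which leaves little range for such a relation.

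Other miRNAs known in neurons for their dependence on activity, or for neuronal expression, were mostly undetected or not called in kidney. Of 19 such miRNAs on the array 10 were expressed on at least 1 array and 2, miR-128-3p and miR-9a-5p, on all 74. Calls were made with limma over all 311 miRNAs and needed both a Benjamini-Hochberg p under 0.05 and a change of 1.5-fold or more. Between 104 and 21 weeks in males, 1 of the 10 rose and 2 fell. Of all expressed miRNAs 13.8% were called in that comparison, 6.11% higher and 7.72% lower. In females 0 of 10 were called (1 at an unadjusted p under 0.05), where 3.22% of all were, 0.965% higher and 2.25% lower. Between the sexes at 104 weeks 1 of 10 was higher in males, where 6.75% of all were called, 4.18% higher and 2.57% lower. Their median log2 difference was -0.14 in males and 0.00 in females and between the sexes, against -0.02, 0.00 and 0.00 over all expressed miRNAs.

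The miRNA that rose was miR-184, known from lens and corneal epithelium as well as brain. It was detected on 7 arrays, all of old animals. The 4 males of 104 weeks had normalized intensities of 0.0942, 0.0854, 0.0611 and 0.0703. Among 78-week males 2 of 5 had 0.0483 and 0.0620, and 1 of 5 females of 104 weeks had 0.0962. Against 21-week males, where 0 of 5 were detected, the fold was 4.48. That size depends on the floor at which the undetected arrays stand. The call of miR-184 by limma is given without its p, because groups wholly at the floor add no spread to the fit. Against 104-week females the log2 difference was 1.66, although the 1 detected female lay above all 4 males. The methods' t-test did not call miR-184 between the sexes.

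The miRNAs that fell in males were miR-9a-5p, a miRNA of neural progenitors, and miR-219a-5p, a miRNA of oligodendrocytes. miR-9a-5p went from 0.148 to 0.0965 (log2 difference -0.66, SE 0.21, limma adjusted p = 0.0108). miR-219a-5p was detected in 2 of 5 animals at 21 weeks, the highest at 0.176, and in 1 of 4 at 104 weeks. All its 104-week values stood at the floor, so its call by limma rests on few detections and is given without its p. miR-128-3p, a neuronal miRNA, had 0.551 at 104 weeks and 0.541 at 21 weeks in males (log2 difference 0.04, SE 0.12). The methods' t-test called 1 of these 10 miRNAs in males, where limma called 3.

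In a bulk tissue fewer cells of a type and less RNA per cell cannot be told apart, and the miRNAs of several cell types differed between the same groups as miR-132-3p. Of 7 expressed leukocyte miRNAs 5 rose in males from 21 to 104 weeks, with a median log2 difference of 0.98 over the list, and 5 were higher in males than in females at 104 weeks. In females 1 of 7 rose. Among all expressed miRNAs 6.11% rose in males, 0.965% rose in females and 4.18% were higher in males than in females at 104 weeks. miR-142-3p, made by all blood cell lineages, went from 0.70 to 1.87 in males and from 0.503 to 0.869 in females. miR-223-3p of neutrophils and monocytes went from 1.5 to 2.98 in males, and miR-150-5p of mature lymphocytes from 1.06 to 1.73. The summed level of the list was 13.1 to 17.5 in 104-week males, 9.44 to 10.7 in 104-week females, 10.7 to 14.2 in 78-week males and 8.93 to 10.4 in 21-week males.

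Of 9 expressed miRNAs of mesenchymal cells, fibrosis and senescence, 6 rose in males and 1 rose in females. At 104 weeks 4 were higher in males than in females. The shares over all expressed miRNAs were 6.11, 0.965 and 4.18% in these comparisons. miR-21-5p, abundant in fibrotic kidney, went from 32.5 to 69.1 in males (log2 difference 1.05, SE 0.17, limma adjusted p = 6.54e-07), and miR-34a-5p, induced by p53, from 1.45 to 3.1. The summed level of this list was 73.4 to 121 in 104-week males, 62.3 to 68.9 in 104-week females, 61.9 to 143 in 78-week males and 50.4 to 55.7 in 21-week males. miR-143-3p of smooth muscle, at 10.3 and 10.2, was not called.

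Tubular miRNAs went the other way. Of 12 expressed members 6 fell in males from 21 to 104 weeks and 0 were called in females, with 0 at an unadjusted p under 0.05 there. Between the sexes at 104 weeks 1 was called lower in males. At an unadjusted limma p under 0.05 there were 9, of which miR-204-5p was higher in males. Among all expressed miRNAs 7.72% fell in males, 2.25% fell in females and 2.57% were lower in males than in females at 104 weeks. miR-192-5p, an abundant miRNA of the renal tubule, went from 19 to 11.2 in males (log2 difference -0.77, SE 0.08, limma adjusted p = 5.62e-11). The summed level was 33.8 to 42.4 in 104-week males and 51.6 to 56.6 in 104-week females.

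Of 4 expressed endothelial miRNAs 0 were called by limma in any of these comparisons, with 0, 1 and 1 at an unadjusted p under 0.05 in males, females and between the sexes. Of 3 red blood cell miRNAs 2 rose in males, 1 rose in females and 0 were called between the sexes (1 at an unadjusted p under 0.05). Among all expressed miRNAs 13.8, 3.22 and 6.75% were called in males, females and between the sexes. The shares called higher were 6.11, 0.965 and 4.18%. The erythroid miR-451-5p went from 1.69 to 3.20 in males and from 1.34 to 2.54 in females. The most abundant strand of each of these cell types was detected on all 74 arrays. The undetected entries of these lists included miR-215 of the tubule and otherwise passenger strands such as miR-21-3p and miR-223-5p.

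Whether animals of the same group with more miR-132-3p also held more of these miRNAs was asked over the 19 animals of 78 and 104 weeks, in 10 relations. The late-life spread of the pair was in view when it was chosen, so these relations are descriptions, given with no p. Between deviations of miR-132-3p from the group mean and those of the leukocyte list, r was 0.58 and rho 0.50. With the mesenchymal list r was 0.66 and rho 0.53. Both leaned on 78-week male replicate 6, which was highest in miR-132-3p (1.32 log2 units above its group mean), in leukocyte miRNAs (0.43 above) and in mesenchymal miRNAs (0.38 above). Without that animal r was 0.29 and 0.43. Without the 2 animals farthest from the median of miR-132-3p r was 0.45 and 0.58, and with slide means removed 0.56 and 0.71. With the list members alone that were not called between 104 and 21 weeks, 2 leukocyte and 3 mesenchymal miRNAs, r turned to -0.020 and -0.33.

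**Figure D3:**
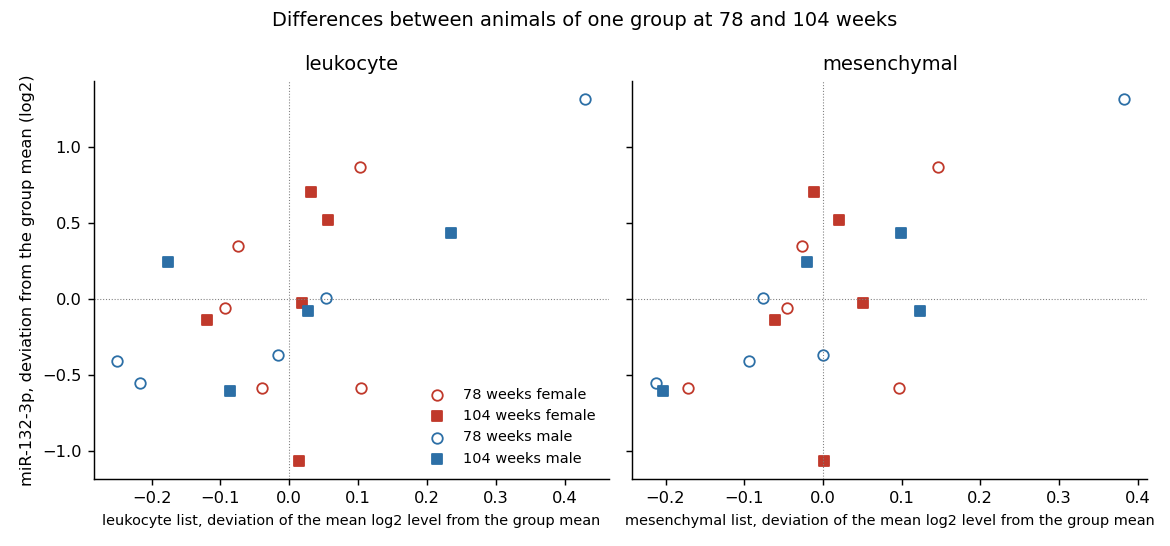
Deviation of miR-132-3p from its group mean in each of the 19 animals of 78 and 104 weeks, against that of the leukocyte list (left) and the mesenchymal list (right), all in log2 units. Circles are 78 weeks, squares 104 weeks, and colour gives sex. The point at the upper right is 78-week male replicate 6, and r is 0.58 (left) and 0.66 (right) with it but 0.29 and 0.43 without it.

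In the other 8 relations r was nearer to 0. For miR-132-3p r was -0.04 with the endothelial list, -0.33 with the tubular list and 0.13 with the red blood cell miRNA. For miR-212-3p r was 0.32 with the leukocyte list, 0.14 with the mesenchymal, -0.18 with the endothelial, -0.40 with the tubular and -0.03 with the red blood cell miRNA. Since miR-212-3p was detected in 4 of these 19 animals, its relations rest on 4 points above or near the floor.

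The miRNAs whose group means ran most like those of miR-132-3p were looked for among the 227 others detected on at least 50% of arrays. Over 16 group means of log2 level, r was 0.87 for miR-150-5p, 0.81 for miR-146b-5p, 0.79 for miR-494-3p, 0.74 for miR-532-5p and 0.73 for miR-223-3p. The median r of all was -0.13. By ranks of the group means, Spearman's rho for the same miRNAs in that order was 0.64, 0.39, 0.70, 0.51 and 0.73. miR-150-5p and miR-223-3p are leukocyte miRNAs, and miR-146b-5p is induced by inflammatory signals. Levels of miR-150-5p were 1.73 ± 0.134 (SD, n = 4) for 104-week males, against 1.06 ± 0.144 (SD, n = 5) for females of that age and 1.06 ± 0.0529 (SD, n = 5) for 21-week males. Those of miR-146b-5p were 0.536 ± 0.150, 0.268 ± 0.0353 and 0.224 ± 0.0257 in the same groups.

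**Figure D4:**
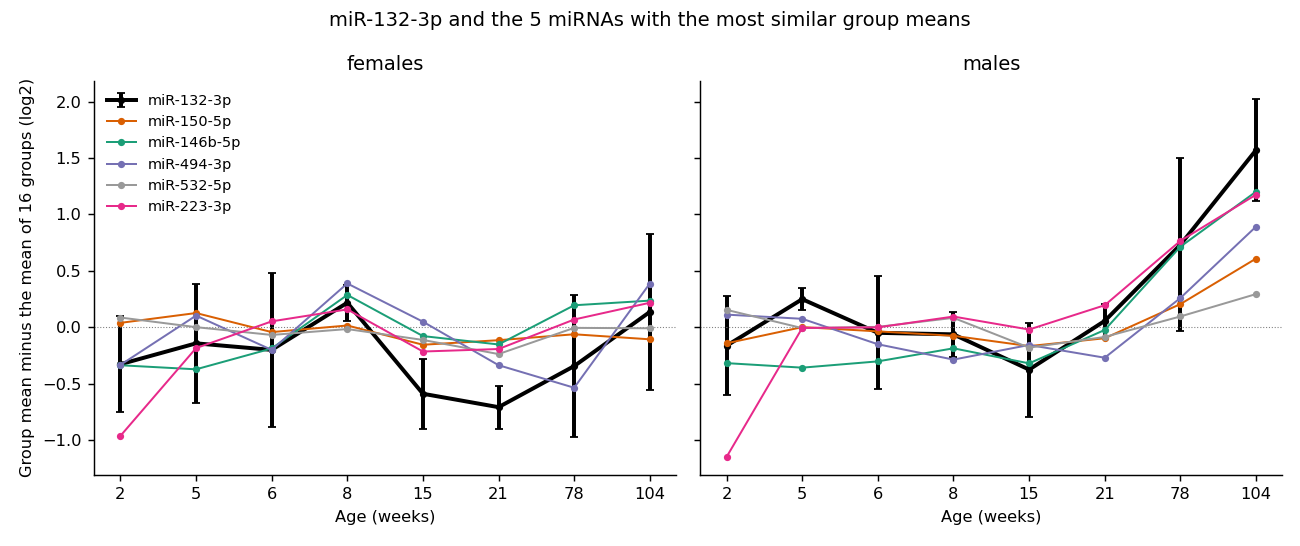
Group means of log2 level at each age in weeks, each minus the mean of its 16 group means, for females (left) and males (right). Black lines are miR-132-3p with bars of 1 SD between animals, and coloured lines are the 5 miRNAs with the highest r to it, 0.87 to 0.73. All 6 are highest in males of 104 weeks.

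Between animals of the same group the nearest miRNAs to miR-132-3p, over all 74 arrays, were miR-146b-5p (r = 0.63), miR-674-3p (0.57), miR-223-3p (0.55), miR-199a-3p (0.54) and miR-532-5p (0.48), with a median of 0.08 over all 227. Thus miR-146b-5p, miR-223-3p and miR-532-5p were among the nearest 5 by both measures. For miR-212-3p the nearest by group means were miR-196c-3p (0.72), miR-483-5p (0.61), miR-652-5p (0.61), miR-347 (0.55) and miR-200b-3p (0.52). Between animals they were miR-202-3p (0.63), miR-678 (0.62), miR-345-3p (0.60), miR-878 (0.54) and miR-330-3p (0.54). Neither set for miR-212-3p shares a miRNA with those of its cluster partner, which says little for sets of 5 among 228 miRNAs. miR-212-3p was undetected on 51 of 74 arrays, which limits what its nearest miRNAs can show. These correlations are descriptions of points that share slides and scaling.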

How the data were processed

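The authors deposited, for each array, scanner intensities from Agilent Feature Extraction 10.7.3.1, in which background was subtracted and the spots of a miRNA combined into a total gene signal, 0.1 marking an undetected miRNA. The deposited value table of normalized intensities was used as an alternative only: 5 of its 74 columns equalled the scanner output of the sample they name (tolerance 0.001) and 69 that of another sample. Here each array was divided by its 75th percentile over 311 expressed miRNAs, raised to a common floor of 0.0171, which is the lowest detected signal (1.39) over the smallest 75th percentile (81.1), and taken to log2. The lists' miRNAs were fitted by limma 3.58.1 (R 4.3.3; 1 mean per group, 58 residual degrees of freedom, Benjamini-Hochberg over 311 miRNAs), a method also tested on simulated data. Correlations used deviations from group means. Permutations within groups (100000) gave p, which is not printed since the pair was chosen with its signals and late-life spread in view. Animals were independent. Members, lists and the rule for named miRNAs (both members with their other arms, list members, and the 5 nearest by r) were chosen with earlier results of these data known. The alternatives were other percentiles and floors, normexp, quantile normalization, slide (random-block correlation 0.130) and replicate blocks, the methods' t-test, filters, and each array left out. Replicate numbers did not pair animals: same-numbered animals of both sexes of an age correlated at 0.037 on average over 28 pairs (lowest -0.616). Sequences are those of RefSeq (GRCr8), and the array's own older build was not used.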

Additional observations from a re-analysis of the deposited data

Results flagged for a closer look

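In 12 of the 30 groups tested, 1 animal stood apart from the rest by Dixon's ratio (its gap to the nearest animal over the whole range of the group). The usual chance rate of about 1 in 20 does not apply here, because undetected animals were placed at 1 floor and not measured. For miR-132-3p these were 3 undetected animals below an otherwise detected group: 2-week male 2 (ratio 0.775), 5-week female 6 (0.849) and 6-week male 1 (0.763). The brighter probe of these animals read 0.0396, 0.0310 and 0.0350 of the 75th percentile, within 0.0194 to 0.10 of the detected arrays.

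For miR-212-3p they were high animals. In 8 groups the sole detected animal had a ratio of 1, which follows from the tie of all others at the floor: 5-week female 5 (0.0262), 6-week male 6 (0.0588), 8-week female 1 (0.0330), 15-week male 2 (0.0260), 78-week female 6 (0.0436), 78-week male 6 (0.0344), 104-week female 2 (0.0217) and 104-week male 1 (0.0180). In the other group 21-week male 2, at 0.115, had a ratio of 0.908.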

How the results depend on the processing

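Across 25 results, settings other than leaving out arrays gave 298 values. Of these 221 kept their direction and side of the threshold or stayed within 1 SD. Of the rest 33 moved, 32 changed sign and 12 passed a threshold missed otherwise. For relations between miRNAs no such passing is read as a result, because the pair was chosen with its signals in view. Of these settings the sum of all probes, the brighter probe alone and the detected arrays alone were chosen after the data were seen. Where no cause is given below, the cause was not tested.

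The sex difference of miR-132-3p at 104 weeks (log2) ran from 1.17 to 1.63 when each animal was left out in turn, and that at 78 weeks from 0.74 to 1.29. The difference between 104 and 21 weeks ran from 1.37 to 1.71 in males and from 0.67 to 1.11 in females. The brighter probe alone gave 1.17 in males. Normexp, which adds an offset of 50 to background-corrected spot medians, gave -0.032 and -0.12 for the sexes at 104 and 78 weeks. It gave 0.051 and 0.17 for age in males and females. The deposited value table, read by column names that mostly carry another sample, gave 0.21 for the sexes at 104 weeks and 0.52 for age in males. The replicate number as a block gave 1.44 and 1.07 for the sexes and 1.52 and 0.82 for age.

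For miR-212-3p, with few detections, the sex difference at 104 weeks became -0.20 with the floor set before scaling, -0.22 with normexp, 0.085 with quantile normalization, 0.17 with the value table, -0.20 with the brighter probe and -0.26 over detected arrays. Age in females (-0.68) became -1.18 with a floor at the median array, -1.07 with the floor before scaling, 0.036 with normexp, -1.18 with quantile normalization and -0.23 with the value table. Age in males (-0.58) became 0.30 with the value table and ran from -0.73 to -0.04 over left-out animals.

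The late-life r of miR-132-3p with the leukocyte and mesenchymal lists was 0.68 and 0.65 with the percentile over all miRNAs of the array, 0.68 and 0.71 over miRNAs detected on all arrays, 0.64 and 0.57 with normexp, 0.75 and 0.74 with the sum of all probes, and 0.60 and 0.67 with the replicate block. With list members not called between 104 and 21 weeks (2 and 3 miRNAs) it was -0.020 and -0.33. Over left-out animals it ran from 0.29 to 0.67 and from 0.43 to 0.75, lowest without 78-week male 6.

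The other relations often changed sign. The r of miR-132-3p with the endothelial list was 0.15 over always-detected miRNAs, 0.027 with the floor before scaling, 0.70 with normexp, 0.20 with the value table, 0.11 with slide as a block and 0.034 with the replicate block (-0.22 to 0.11 over left-out animals). With the tubular list it was 0.016 with normexp and 0.093 with the value table (-0.48 to 0.070), and with the red blood cell miRNA -0.40 with normexp (-0.049 to 0.30). The r of miR-212-3p with the leukocyte list was -0.071 with the percentile over all miRNAs and 0.49 with normexp (-0.18 to 0.60). With the mesenchymal list it was -0.27 with that percentile, -0.093 with slide, -0.32 with the replicate block and -0.34 with uncalled members (-0.51 to 0.69). With the endothelial list it was 0.086 over always-detected miRNAs, 0.74 with normexp and 0.026 with the value table (-0.40 to 0.27). With the tubular list it was 0.12 with normexp, 0.20 with the value table, 0.090 with slide and 0.42 with the replicate block (-0.59 to -0.026). With the red blood cell miRNA it was 0.10 over always-detected miRNAs, 0.14 with quantile normalization, 0.064 with the sum of all probes, 0.021 with slide and 0.012 with the replicate block (-0.15 to 0.19). The r between both miRNAs was -0.047 with the percentile over all miRNAs, -0.092 with the floor before scaling and 0.98 with normexp. It was -0.036 with quantile normalization and -0.18 with the value table (-0.048 to 0.12).

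Of the activity list 0 miRNAs were called in males with normexp or the value table and 1 by the methods' t-test, 1 in females with the sum of all probes, and 0 between the sexes with normexp, the value table or the t-test. The cell type lists together had 19, 3 and 10 calls in males, females and between the sexes: normexp gave 7 and 3 in males and between the sexes, the value table had 1 call in males, 13 in females and 5 between the sexes, and no fold threshold gave 6 and 19 in females and between the sexes. Left-out animals gave 18 to 19, 2 to 4 and 7 to 13, the fewest between the sexes without 104-week male 6.

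Signals near the scanner's limit are what bounds these results: 13 undetected values of miR-132-3p and 51 of miR-212-3p stand at 1 floor.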
